A study of Mus musculus with 11 samples.

Results

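The nuclear genes of the mitochondrial respiratory chain and ATP synthase were examined in conventional type 1 dendritic cells (cDC1s) sorted from B16 melanoma tumors grown in mice. Members were taken by gene symbol from the normalized expression table: the Nduf, Sdh, Uqcr, Cox4 to Cox8 and Atp5 families with Cyc1, Cycs and Cox6a2. This rule gave 87 of the 11118 genes in that table, and all 87 were among the 10951 genes tested. Cox6a2 is described apart, because it was counted by few reads and lies beside the Itgax locus. Cox6a2 was also proposed with earlier results of these data known, so its p-values below are not independent evidence. The other 86 genes comprised 43 of complex I, 4 of complex II, 9 of complex III, Cycs, 14 of complex IV and 15 of ATP synthase (complex V).

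The study asked what loss of the transcription factor XBP1s, alone or with the RNase domain of its activator IRE1, changes in tumor cDC1s. RNA was sequenced from 11 pools, each sorted from the tumors of 2 to 4 mice. Total counts ranged from 21089065 to 26843486 per pool. The 4 control pools carried no Cre: 3 came from XBP1 fl/fl mice and control pool 4 from XBP1 fl/fl, IRE1 fl/fl mice. The 4 XBP1ΔDC pools came from XBP1 fl/fl mice with CD11c-CRE, and the 3 XBP1ΔDCIRE1truncDC pools from XBP1 fl/fl, IRE1 fl/fl mice with CD11c-CRE. All mice were on the C57BL/6 background, of both sexes and 6 to 14 weeks old. CD11c-CRE is a Cre recombinase transgene under the promoter of Itgax, the gene of CD11c, which other CD11c-expressing cells also use. It removes exon 2 of Xbp1 and exons 20 and 21 of Ern1, which encodes IRE1, so that a truncated IRE1 remains. No pool carried Cre with intact Xbp1, so effects of Cre and of the Xbp1 deletion cannot be told apart. Floxed Ern1 mice without Cre gave only control pool 4, so effects of that mouse line and of the IRE1 truncation were not separated.

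The respiratory chain passes electrons from NADH and succinate to oxygen and pumps protons across the inner mitochondrial membrane. Complex I takes electrons from NADH and complex II from succinate. Complex III hands them through cytochrome c to complex IV, which reduces oxygen, and complex V uses the proton gradient to make ATP. The mitochondrial genome encodes part of complexes I, III, IV and V. None of its 13 subunit genes was found by its mt- symbol among the genes counted, so they could not be read here. All subunits described below are made from nuclear genes. In bulk samples, fewer cells of a type and less RNA per cell cannot be told apart.

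The targeted genes were read first. Xbp1 stood at 244, 249, 254 and 271 CPM (counts scaled to the depth of each pool) in the control pools, at 130, 152, 161 and 165 in the XBP1ΔDC pools and at 212, 236 and 179 in the XBP1ΔDCIRE1truncDC pools. Every Cre-positive pool was below every control pool. Xbp1 fell in XBP1ΔDC by 0.74 on the log2 scale (SE 0.0973, adjusted p = 0.00167, edgeR quasi-likelihood test, Benjamini-Hochberg). In XBP1ΔDCIRE1truncDC the log2 difference from control was -0.28 (SE 0.105, adjusted p = 0.324), which did not pass 0.05. Ern1 did not pass in either line, with log2 differences of -0.17 (SE 0.214) and 0.62 (SE 0.227) from control and adjusted p-values of 0.95 and 0.322. Counts were summed over whole genes, retained exons included, and so do not measure the deletions themselves. All 11 cDC1 marker genes listed, among them Xcr1, Clec9a and Batf3, were expressed, with a summed level of 13100 to 14400 CPM in control, 11000 to 12400 in XBP1ΔDC and 12000 to 12800 in XBP1ΔDCIRE1truncDC. The summed level of every Cre-positive pool thus lay below that of every control pool. Single markers went both ways, with 4 higher and 7 lower in XBP1ΔDC (median log2 difference -0.064). In XBP1ΔDCIRE1truncDC 5 were higher and 6 lower (median -0.013). Naaa alone made up 4141 ± 177 CPM (SD, n = 4) in control, 2905 ± 148 (SD, n = 4) in XBP1ΔDC and 3298 ± 104 (SD, n = 3) in XBP1ΔDCIRE1truncDC. Of the 11 markers, Naaa fell in both lines, by 0.51 (SE 0.0555) and by 0.33 (SE 0.0602) on the log2 scale (adjusted p = 0.000495 and 0.0396, edgeR). Of all genes tested, 0.895% and 0.356% passed in these comparisons. At an unadjusted p under 0.05 (edgeR), Naaa included, 2 markers were lower in XBP1ΔDC. In XBP1ΔDCIRE1truncDC 2 were lower and 1 higher at that p. Over all genes tested the shares at that p were 7.62% and 11.2%.

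In control cDC1s the respiratory chain genes were expressed well above the typical gene. To compare genes with each other, CPM were divided by the exon length of each gene in kb. The 86 genes had a median level of 59.89 CPM per kb in control, against 5.879 over all genes tested with a length, and 77 of the 86 lay above that value. Together the 86 genes took 1.1 to 1.19% of the scaled counts in control, 1.06 to 1.21% in XBP1ΔDC and 1.1 to 1.23% in XBP1ΔDCIRE1truncDC, so the ranges of the 3 groups overlapped.

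The levels differed widely between subunits of the same complex. Among the 35 complex I subunits the per-length level in control ran from 0.4751 ± 0.063 CPM per kb (SD, n = 4) for Ndufab1, the mitochondrial acyl carrier protein, to 157.2 ± 13.6 (SD, n = 4) for Ndufa1, with a median of 45.72. In complex II the range was from 29.07 ± 1.16 (SD, n = 4) for the membrane anchor Sdhc to 208.3 ± 13.0 (SD, n = 4) for the other anchor, Sdhd. In complex III it was 47.38 ± 2.39 (SD, n = 4) for Uqcrq to 142.4 ± 7.97 (SD, n = 4) for Uqcrfs1, the Rieske iron-sulfur protein. By this length complex III thus had the narrowest span of the multi-gene complexes, 3.01-fold against 331-fold in complex I. With the longest transcript as length instead, Ndufab1 stood at 0.9401 CPM per kb and Ndufa1 again at 157.2. Uqcrb, at 216.9, was then above Uqcrfs1, at 142.4.

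Cycs, the somatic cytochrome c, stood at 19.08 ± 1.16 CPM per kb (SD, n = 4). The 11 complex IV subunits ran from 39.45 ± 2.36 (SD, n = 4) for Cox6c to 369.5 ± 19.9 (SD, n = 4) for Cox6a1. Their median, 104.5 CPM per kb, was the highest of the complexes by exon length. The 14 complex V subunits ran from 8.118 ± 0.782 (SD, n = 4) for Atp5g2 to 384.3 ± 13.8 (SD, n = 4) for Atp5b, the catalytic beta subunit. The 8 complex I assembly factors, which help build the complex and are not part of it, were lower, from 2.847 CPM per kb for Ndufaf2 to 12.96 for Ndufaf6. The extremes depend on the length used. With the longest transcript as length, Cox4i1, at 450.5 CPM per kb, was above Cox6a1, at 418.4. Atp5g1, at 15.81, was then below Atp5g2, at 18.06.

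Several of these levels are uncertain where transcripts of other genes share sequence with a respiratory chain gene. Of the 50-base windows of Ndufab1, 12.3% were also found in transcripts of other genes, and for Ndufb4, the next lowest complex I subunit at 1.909 CPM per kb, the share was 37%. The share was 47.9% for Atp5h and 43.4% for Uqcrb. Reads from such windows may have been left out or split in counting, so the order of genes is less certain than the comparison of the same gene between pools.

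**Figure D1:**
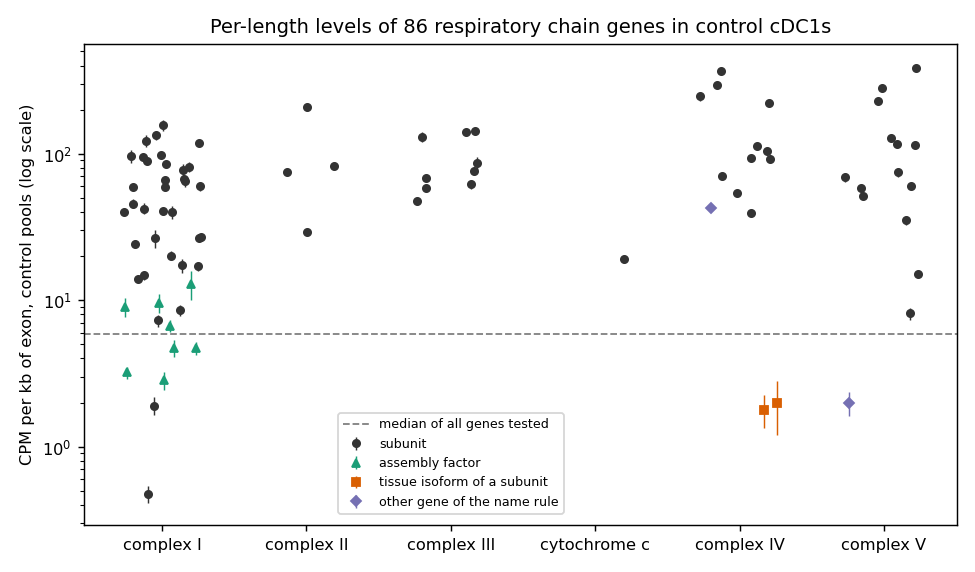
Per-length level of the 86 respiratory chain genes in the 4 control pools (vertical axis, CPM per kb of exon, log scale) by complex (horizontal axis). Each point is the mean of a gene and its bar the SD over the pools, symbols separate subunits from assembly factors, tissue isoforms and other genes, and the dashed line is the median of all genes tested, 5.879. Most subunits lie far above the line, whereas the assembly factors lie near it and Ndufab1 is the lowest point.

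Where a subunit has several genes, the same gene dominated in every pool. Atp5g1, Atp5g2 and Atp5g3 encode precursors of the same c subunit of the ATP synthase rotor. Atp5g3 gave 82.7 to 83.7% of their summed per-length level in control, 82.6 to 83.9% in XBP1ΔDC and 82.9 to 83.5% in XBP1ΔDCIRE1truncDC. Atp5g1 gave 10.7 to 11.7% and Atp5g2 4.97 to 6.59% over all 11 pools. The order of Atp5g1 and Atp5g2 depends on the length used. With the longest transcript as length, control levels were 15.81 CPM per kb for Atp5g1, 18.06 for Atp5g2 and 291.4 for Atp5g3. Of their 50-base windows, 11.6%, 14.8% and 0% also occur in transcripts of other genes, so the shares are approximate.

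Complex IV has tissue isoforms, and cDC1s expressed the ubiquitous ones. Cox7a1, the heart and skeletal muscle isoform, made up 0.835 to 3.01% of the per-length sum with its ubiquitous counterpart Cox7a2. Cox6b2, the testis isoform, made up 0.501 to 1.04% of the sum with Cox6b1. Neither passed the test in any comparison: Cox7a1 had log2 differences from control of 0.083 (95% interval -0.92 to 1.09) in XBP1ΔDC and 0.0525 (-1.03 to 1.14) in XBP1ΔDCIRE1truncDC, and Cox6b2 of 0.15 (-0.62 to 0.92) and 0.19 (-0.63 to 1.02). Both genes lie near 1 to 2 CPM, and a change of 1.5-fold was not detectable in them.

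Another 7 genes fit the naming rule but were absent from the normalized table. Cox8b, Cox8c and Cox7b2, muscle or testis isoforms, had 0 counts in all pools. Ndufs5 had 0 to 1 counts per pool and Atp5l 6 to 21, and 31.1% and 84.8% of their windows occur in other genes; the part of shared sequence in these low counts was not tested. Cox4i2, the isoform induced in low oxygen in lung, had 0 to 13 counts. Ndufa4l2, a paralog of Ndufa4 known as a hypoxia target, had 0, 0, 0 and 7 counts in control, 22, 2, 11 and 21 in XBP1ΔDC and 2, 0 and 1 in XBP1ΔDCIRE1truncDC. The XBP1ΔDC pools thus included the highest 3 values but overlapped with control, and in a fit without the low-count filter the log2 difference was 2.84 (SE 1.48, adjusted p = 0.734, edgeR).

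In XBP1ΔDC cDC1s the 86 genes lay near their control level. In XBP1ΔDC against control, 45 of the 86 genes were higher and 41 lower, with a median log2 difference of 0.0052, beside 0.005 over all genes tested. No gene of the 86 passed the adjusted p of 0.05 (edgeR, Benjamini-Hochberg), also with limma voom or DESeq2. In this comparison DESeq2 gave 1 of the 86 no adjusted p. Of all genes tested 0.895% passed, 98 of 10951, of which 94 were lower. At an unadjusted p under 0.05 there was 1 gene of the 86 with each of the 3 tools, where 7.62% of all genes tested reached that p. The 95% interval of the log2 difference lay within 1.5-fold in either direction for 79 of the 86 genes, or 91.9%, against 62.3% of all genes tested. Intervals are narrower in highly expressed genes, and these genes had a median within-group SD of 0.113 on the log2 scale against 0.219 over all genes tested.

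Ndufa9, an accessory subunit of complex I, was 1 of 2 genes of the 86 whose groups did not overlap in this comparison, where 5.31% of all genes tested did not overlap. It stood at 135, 144, 134 and 141 CPM in control and 133, 132, 129 and 106 CPM in XBP1ΔDC. Its log2 difference was -0.15 (SE 0.0971, adjusted p = 0.833, edgeR), and the gap between the groups was smaller than the spread within either.

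By complex, the 28 accessory subunits of complex I had log2 differences between -0.15 for Ndufa9 and 0.08 for Ndufb7 in XBP1ΔDC against control. The 8 assembly factors spread further, from -0.31 (SE 0.2) for Ndufaf2 to 0.29 (SE 0.178) for Ndufaf5, with intervals of -0.74 to 0.13 and -0.1 to 0.67. Complex II ran from -0.04 for Sdha to 0.09 for Sdhb, the iron-sulfur subunit. Complex III ran from -0.11 for Uqcr11 to 0.12 for Uqcrc1, a core protein, and Cycs stood at -0.04. Complex IV ran from -0.08 for Cox7b to 0.15 for Cox6b2, and complex V from -0.13 for Atp5d to 0.06 for Atp5j. The median log2 difference was 0.0058 in complex I, -0.011 in complex II, 0.023 in complex III, 0.026 in complex IV and -0.0046 in complex V.

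The 86 genes also lay near control in cDC1s that lacked both XBP1s and the IRE1 RNase domain. In XBP1ΔDCIRE1truncDC against control, which shares the control pools with the first comparison, 44 of the 86 genes were higher and 42 lower, with a median log2 difference of 0.0017 beside -0.0031 over all genes tested. None of the 86 passed the adjusted p of 0.05 with edgeR, limma voom or DESeq2, and 1 had an unadjusted p under 0.05 with each tool. Over all genes tested the shares were 0.356% and 11.2%. The interval lay within 1.5-fold for 78 of the 86 genes, or 90.7%, against 56.2% of all genes tested.

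Ndufaf4, a complex I assembly factor (GRCm38, chromosome 4, 24898083 to 24905001, plus strand), was the gene at an unadjusted p under 0.05. It stood at 11.4, 12.2, 12.4 and 14.1 CPM in control, at 14.8, 13.3, 16.3 and 10.5 CPM in XBP1ΔDC and at 8.09, 10.3 and 7.52 CPM in XBP1ΔDCIRE1truncDC. The 3 XBP1ΔDCIRE1truncDC pools were the lowest of all, although the nearest XBP1ΔDC pool was close to them. The log2 difference from control was -0.53 (SE 0.185, adjusted p = 0.3, edgeR). It was the only gene of the 86 whose groups did not overlap in this comparison, where 10.1% of all genes tested did not overlap. In XBP1ΔDC the log2 difference of Ndufaf4 from control was 0.13 (SE 0.168, adjusted p = 0.95, edgeR).

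The complexes again ran close to 0 in XBP1ΔDCIRE1truncDC against control. The 28 accessory subunits of complex I had log2 differences between -0.15 for Ndufab1 and 0.08 for Ndufb7, and the core subunit Ndufs3 was at 0.11. Complex II ran from -0.09 for Sdhc to 0.14 (SE 0.0949) for Sdhb, and complex III from -0.19 (SE 0.101) for Uqcr11 to 0.19 (SE 0.108) for Uqcrq, both small subunits. Complex IV ran from -0.08 for Cox7a2l, a supercomplex factor, to 0.19 for Cox6b2, and complex V from -0.12 for Atp5g2 to 0.08 for Atp5k. Ndufaf2, the complex I assembly factor with the lowest level per kb of exon, was at -0.32 (SE 0.217, adjusted p = 0.661, edgeR). The median log2 difference was -0.014 in complex I, 0.016 in complex II, 0.026 in complex III, 0.015 in complex IV and -0.0046 in complex V.

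**Figure D2:**
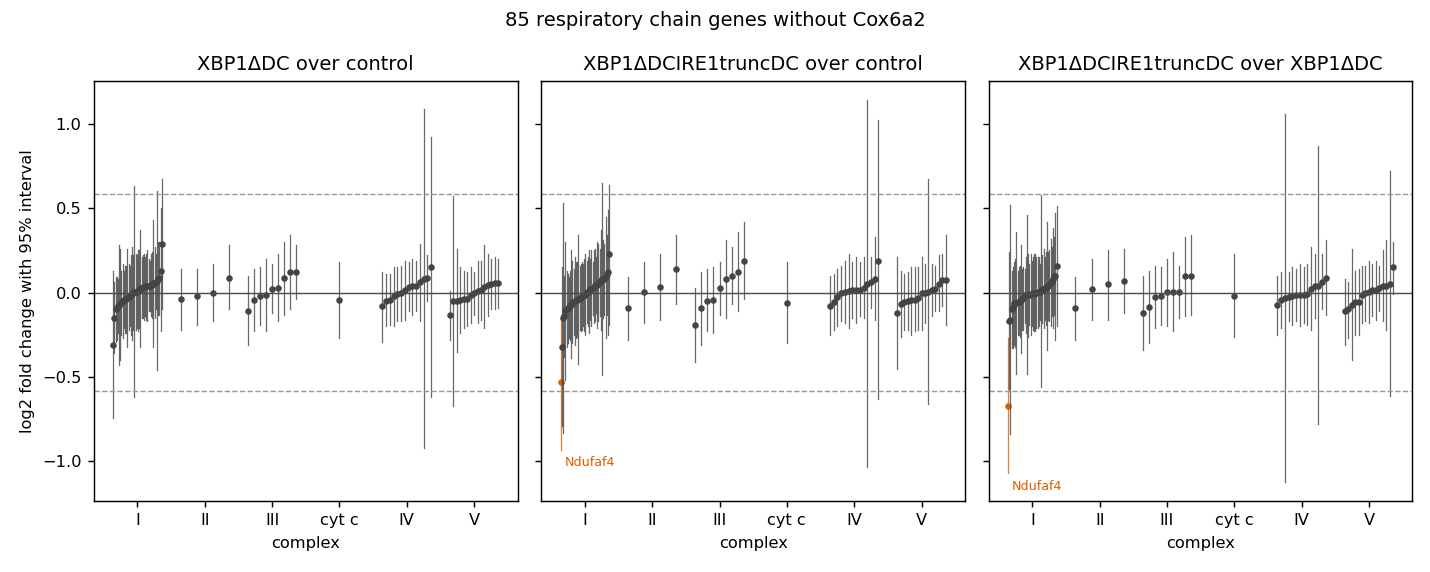
Log2 fold change with its 95% interval (vertical axis) of 85 of the 86 genes by complex (horizontal axis), sorted within each complex, for the 3 comparisons in the 3 panels. Orange marks genes with an unadjusted p under 0.05 and dashed lines mark 1.5-fold. Nearly all points lie between -0.2 and 0.2, and Ndufaf4 is the gene in orange.

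The 2 deleted lines were then compared directly. In XBP1ΔDCIRE1truncDC against XBP1ΔDC, 39 of the 86 genes were higher and 47 lower, with a median log2 difference of -0.0032 beside 0.0015 over all genes tested. No gene of the 86 passed the adjusted p of 0.05 with edgeR, limma voom or DESeq2, while 0.0731% of all genes tested, 8 genes, did with edgeR. At an unadjusted p under 0.05 there were 2 genes with edgeR and with limma voom and 3 with DESeq2, where 5.29% of all genes tested reached that p with edgeR. Ndufaf4 had a log2 difference of -0.67 (SE 0.185, adjusted p = 0.44, edgeR), with an interval of -1.07 to -0.27.

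Atp5d, the delta subunit of the F1 head of ATP synthase, was among the genes with the smallest p in this comparison. It stood at 225, 241, 216 and 218 CPM in XBP1ΔDC and at 248, 248 and 250 CPM in XBP1ΔDCIRE1truncDC, and at 265, 254, 236 and 233 CPM in control. The groups of the 2 lines did not overlap, and the control pools overlapped with both. The log2 difference between the lines was 0.15 (SE 0.0717, adjusted p = 0.966, edgeR). Ndufaf4 and Atp5d were among the 3 genes of the 86 whose lines did not overlap, where 6.07% of all genes tested did not. On the lower side, the other genes with the smallest p were Atp5c1 at -0.1 (SE 0.077) and Atp5e at -0.11 (SE 0.0909), the gamma and epsilon subunits of the same head.

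Pools of the same group differed more in these genes than the groups did. For each pool, the median over the 86 genes of the difference in log2 CPM from the control mean was 0.007, 0.081, -0.065 and -0.029 in the control pools, 0.093, -0.005, 0.038 and -0.133 in the XBP1ΔDC pools and -0.078, 0.092 and -0.028 in the XBP1ΔDCIRE1truncDC pools. The control pools lie around 0 because they are centred on their own mean, and each deleted line also had pools on both sides of 0. Over all genes tested, which the scaling of CPM aligns between pools, the same median stayed between -0.013 and 0.019. Complexes I, III, IV and V moved in the same direction within 8 of the 11 pools. In XBP1ΔDC pool 4 their medians were -0.139, -0.116, -0.096 and -0.149, and in XBP1ΔDCIRE1truncDC pool 2 they were 0.1, 0.057, 0.082 and 0.095.

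**Figure D3:**
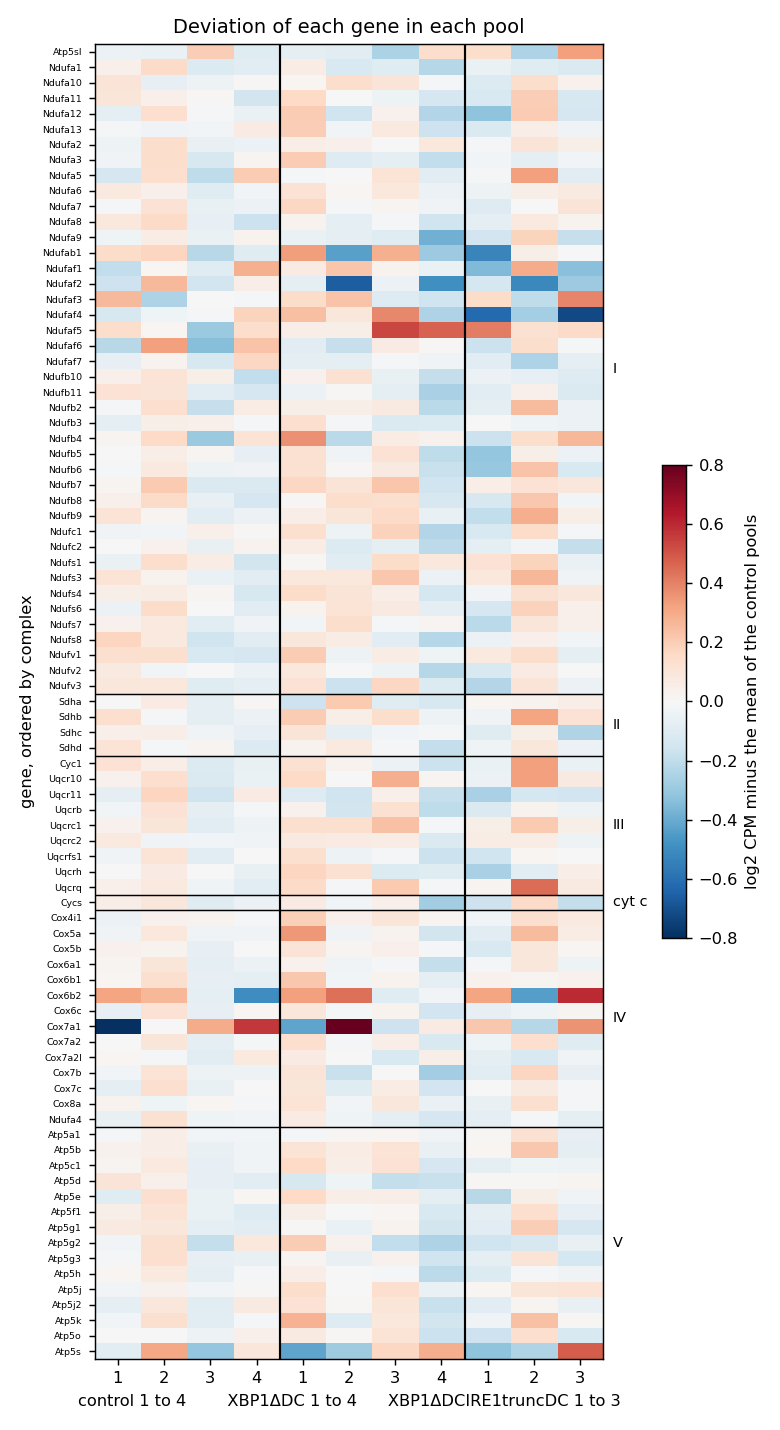
Log2 CPM of each of 85 of the 86 genes minus its mean over the control pools (colour, limits at -0.8 and 0.8, with 2 of 935 values beyond them) in each pool (columns, numbered by replicate within group), with genes in rows by complex. Whole columns are tinted together, such as XBP1ΔDC pool 4 in blue and control pool 2 in red, within every group, whereas Ndufaf2, Ndufaf4, Cox7a1, Cox6b2 and Atp5s, genes of low level, vary on their own.

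One gene of the 86 lies within 5 Mb of a targeted gene. Uqcr10, a small subunit of complex III, lies 0.82 Mb from Xbp1 on chromosome 11 (GRCm38, 4701973 to 4704342, minus strand). Its level was 75.8 ± 5.78 CPM (SD, n = 4) in control, 82.41 ± 7.78 (SD, n = 4) in XBP1ΔDC and 82.55 ± 11.3 (SD, n = 3) in XBP1ΔDCIRE1truncDC, with overlapping pools. The log2 difference from control was 0.12 in both lines (SE 0.101 and 0.109, adjusted p of 0.908 and 0.758, edgeR).

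Other mitochondrial genes outside the naming rule were read from lists for the same pathway. Of 36 tested assembly factors of complexes I to V, none passed the adjusted p of 0.05 in any of the 3 comparisons with edgeR, limma voom or DESeq2. In XBP1ΔDC against control DESeq2 gave 1 of the 36 no adjusted p. At an unadjusted p under 0.05 the count was 0 in XBP1ΔDC against control, 4 in XBP1ΔDCIRE1truncDC against control and 2 between the lines, the same with each tool, beside 7.62%, 11.2% and 5.29% of all genes tested with edgeR. Of 15 regulators of mitochondrial biogenesis, such as Tfam and Esrra, none passed, with 1, 0 and 1 at an unadjusted p under 0.05 by edgeR. None of the 13 enzymes of the TCA cycle and none of the 7 genes of ATP export passed at either level in any comparison with the 3 tools. The median log2 differences in XBP1ΔDC against control were 0.0066, 0.022, -0.0089 and 0.034 for the 4 lists, and in XBP1ΔDCIRE1truncDC against control they were -0.024, -0.022, 0.007 and 0.064.

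Cox6a2 was the exception among the 87 genes. It encodes the heart and skeletal muscle isoform of subunit VIa of complex IV, whose ubiquitous form is encoded by Cox6a1. Coding stretches of both mouse transcripts (GENCODE, GRCm38) are shown because counts of a rare isoform could come from reads of an abundant relative. Capitals mark the longest run that both share, 12 bases, and the stretches cover coding bases 181 to 330 of Cox6a1 and 136 to 285 of Cox6a2.
Cox6a1: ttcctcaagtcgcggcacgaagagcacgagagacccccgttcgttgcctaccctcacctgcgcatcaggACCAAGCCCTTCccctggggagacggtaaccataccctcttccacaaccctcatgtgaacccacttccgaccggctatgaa
Cox6a2: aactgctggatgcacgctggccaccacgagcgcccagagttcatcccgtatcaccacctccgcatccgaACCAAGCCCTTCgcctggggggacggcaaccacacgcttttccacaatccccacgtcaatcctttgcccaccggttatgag
Over the whole aligned coding sequences 59.3% of 337 columns were identical, and no 50-base window of Cox6a2 occurs in Cox6a1. The part of Cox6a1 reads in the Cox6a2 counts was not tested.

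Cox6a2 was counted by 4, 1, 2 and 1 reads in the control pools, by 48, 29, 22 and 20 in the XBP1ΔDC pools and by 26, 104 and 45 in the XBP1ΔDCIRE1truncDC pools. Every Cre-positive pool was far above every control pool. Its level was 0.0835 ± 0.0608 CPM (SD, n = 4) in control, 1.28 ± 0.645 (SD, n = 4) in XBP1ΔDC and 2.61 ± 2.0 (SD, n = 3) in XBP1ΔDCIRE1truncDC. It passed the low-count filter of 1 CPM in 4 pools only through Cre-positive pools, 5 of which exceeded 1 CPM against 0 control pools.

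Cox6a2 rose in XBP1ΔDC by 3.86 on the log2 scale (SE 0.715, adjusted p = 0.0222, edgeR) and in XBP1ΔDCIRE1truncDC by 4.89 (SE 0.739, adjusted p = 0.0105, edgeR). It was the 1 gene of the 87 called in each of these comparisons, where 0.895% and 0.356% of all genes tested were called, and its groups did not overlap. Between the lines the log2 difference was 1.02 (SE 0.597, adjusted p = 0.967, edgeR), with an interval of -0.27 to 2.32. With the 7 Cre-positive pools set against the 4 control pools, the log2 difference was 4.37 (SE 0.688, adjusted p = 0.00698, edgeR), where 0.977% of all genes tested passed. In a fit without the low-count filter the adjusted p-values were 0.0262 in XBP1ΔDC, 0.0125 in XBP1ΔDCIRE1truncDC and 0.00839 over the Cre-positive pools (edgeR). Summed over pools, 294 counts in Cre-positive and 8 in control pools gave a rate ratio of 21.5, with an exact 95% interval of 10.8 to 50.3 that covers counting error only. The XBP1ΔDC call was lost on leaving out control pool 2, 3 or 4 or XBP1ΔDC pool 1 or 2 (adjusted p = 0.0941, 0.0754, 0.0838, 0.0681 and 0.0525, edgeR), and the XBP1ΔDCIRE1truncDC call on leaving out control pool 2 (adjusted p = 0.0597, edgeR). Both calls were also lost with limma voom (adjusted p = 0.121 and 0.0586) and with a replicate block in edgeR (0.0811 and 0.0882), the XBP1ΔDC call with the newer quasi-likelihood method of edgeR (0.106) and the XBP1ΔDCIRE1truncDC call in an edgeR fit of only those groups (0.0529). The call over all Cre-positive pools held in each alternative that gave an adjusted p, from 0.00574 to 0.0441.

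Cox6a2 remained a small part of its subunit. Cox6a1 stood at 263, 277, 246 and 251 CPM in control, at 265, 254, 257 and 227 in XBP1ΔDC and at 258, 276 and 252 in XBP1ΔDCIRE1truncDC, with all groups overlapping. Its log2 differences from control were -0.05 (95% interval -0.2 to 0.11) and 0.02 (95% interval -0.15 to 0.18). Of the summed per-length level of both genes, Cox6a2 gave 0.0138 to 0.0665% in control, 0.337 to 0.839% in XBP1ΔDC and 0.405 to 1.78% in XBP1ΔDCIRE1truncDC.

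The level of skeletal muscle markers overlapped between groups. Of 12 muscle markers, Myh1 and Myh4, the fast myosin heavy chains, had 0 counts in all pools, and Acta1 and Ckm, skeletal actin and muscle creatine kinase, stayed at or below 0.74 and 0.977 CPM. Tnni2 stood at 44 to 53.5 CPM over all pools. Without Tnni2 the summed level of the list was 2.8 to 4.0 CPM in control, 3.11 to 4.08 in XBP1ΔDC and 3.21 to 5.35 in XBP1ΔDCIRE1truncDC. Tnni2 and Mylpf, the 2 markers that could be tested, did not pass in any comparison (edgeR), and none had an unadjusted p under 0.05.

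**Figure D4:**
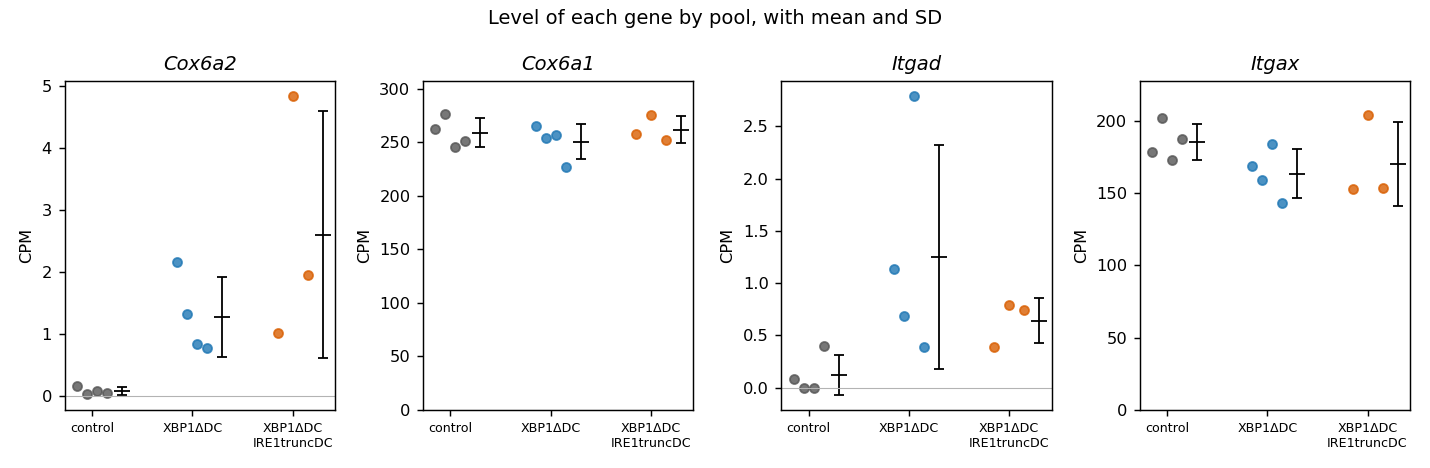
Level in CPM (vertical axes, linear) of Cox6a2, Cox6a1, Itgad and Itgax in each pool (points) of the 3 groups (horizontal axes), with the mean and SD beside the points (n = 4, 4 and 3). The 4 control pools of Cox6a2 lie between 0.037 and 0.17 CPM and the 7 Cre-positive pools between 0.776 and 4.84, whereas the pools of Cox6a1 and Itgax overlap between groups.

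The gene whose promoter drives Cre lies close to Cox6a2. Cox6a2 is on chromosome 7 (GRCm38, 128205435 to 128206387, minus strand), 54777 bp from Itgax (128129547 to 128150657, plus strand). Itgax itself stood at 179, 202, 173 and 188 CPM in control, at 169, 159, 184 and 143 in XBP1ΔDC and at 153, 204 and 154 in XBP1ΔDCIRE1truncDC. The groups overlapped, and over the Cre-positive pools its log2 difference was -0.15 (SE 0.0944, adjusted p = 0.63, edgeR).

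Itgad, a CD11 integrin gene (128154376 to 128223816, plus strand), spans Cox6a2 on the opposite strand, and their exons overlap by 70 bases. The library kit does not mark strand, so reads in that overlap cannot be assigned to either gene by strand. Itgad was counted by 2, 0, 0 and 9 reads in control, by 25, 15, 73 and 10 in XBP1ΔDC and by 10, 17 and 17 in XBP1ΔDCIRE1truncDC. Every Cre-positive pool had more reads than every control pool, but XBP1ΔDC pool 4 and XBP1ΔDCIRE1truncDC pool 1 exceeded control pool 4 by 1 read and, after scaling to depth, lay below it. In a fit without the low-count filter the log2 difference over Cre-positive pools was 2.86 (SE 1.05, adjusted p = 0.383, edgeR), which did not pass. The pool order of Itgad differed from that of Cox6a2: its highest pool was XBP1ΔDC pool 3, where Cox6a2 had 22 reads.

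No other gene within 150 kb of Cox6a2 passed the test. Over the Cre-positive pools, the other 4 tested neighbours besides Itgax had log2 differences between -0.17 (SE 0.152) for BC017158 and 0.15 (SE 0.0946) for Armc5, and none passed the adjusted p of 0.05 or an unadjusted p of 0.05 (edgeR). Tgfb1i1, below the filter, was at 1.54 (SE 1.52, adjusted p = 0.843, edgeR without the filter). The part of the Cre transgene in the Cox6a2 counts was not tested.

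**Figure D5:**
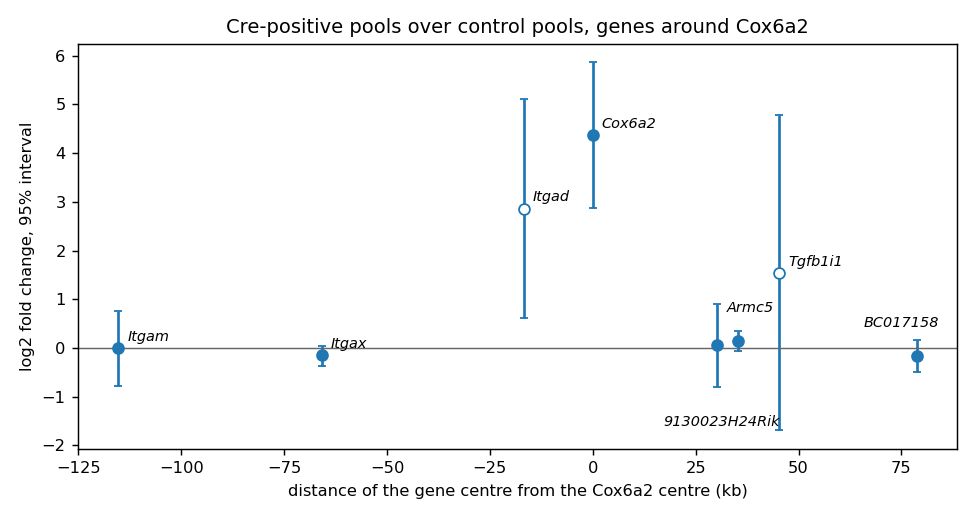
Log2 fold change with its 95% interval (vertical axis) of the 7 Cre-positive over the 4 control pools for genes around Cox6a2, by distance of the gene centre in kb (horizontal axis). Filled points were tested with the filter and open points, Itgad and Tgfb1i1, in a fit without it. Cox6a2 at 4.37 is the gene farthest from 0, and Itgax at -0.15 and the other filled points lie near 0.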

How the data were processed

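The authors prepared libraries with SMART-seq v4 from 5000 to 20000 sorted cells per pool and sequenced single-end reads. Per the labels and the study's methods, reads were trimmed (Trimmomatic 0.39), aligned to mm10 (STAR 2.7.3a) and counted per gene with HTSeq, and the deposited tables hold raw counts and log2 CPM normalized with limma 3.42.2. The setting for strand is not given in the sources used here.

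Raw counts were tested with edgeR 4.0.16 (quasi-likelihood, TMM, genes of at least 1 CPM in 4 pools, 3 groups in one fit, Benjamini-Hochberg over all genes). CPM are TMM-scaled. The log2 table set the member list. Alternatives used limma 3.58.1, DESeq2 1.42.0, other filters and scalings, a replicate block and each pool left out. Scripts were tested on simulated data. Lengths and positions came from GENCODE M21 (GRCm38).

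Named genes are those called, the 3 smallest p per direction and comparison, level extremes per complex, isoform pairs, genes without overlap and neighbours of Xbp1, Ern1, Itgax and Cox6a2. A gene of the 86 is counted but not reported singly here. Members and lists were chosen with earlier results of these data known. The p-values measure spread between pools of different mice. No pool pair of 15 within groups matched within sampling noise (chi-square per degree of freedom 21.2 to 67.2).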

Additional observations from a re-analysis of the deposited data

How the results depend on the processing

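Of the 87 genes, Cox6a2 was the only one called in any setting. The count of called genes in XBP1ΔDC against control went from 1 to 0 with limma voom (Cox6a2 adjusted p = 0.121), the newer quasi-likelihood method of edgeR (0.106) and DESeq2, which gave Cox6a2 no adjusted p, and lay between 0 and 1 over the fits that left out a pool. In XBP1ΔDCIRE1truncDC against control it went to 0 with limma voom (adjusted p = 0.0586) and in an edgeR fit of only these groups (0.0529), and lay between 0 and 1 without single pools. Against all control pools the Cre-positive log2 difference of Cox6a2 stayed between 3.97 and 4.94. Median log2 differences of the 86 genes stayed between -0.056 and 0.042 in every comparison and setting, and no gene of the 87 that was called or had one of the 3 smallest p-values per direction changed direction in that comparison. The log2 difference of Ern1 in XBP1ΔDC, -0.17, lay between -0.31 and 0.0116 without single pools, with the change of sign on leaving out control pool 1. The median level in control, 59.89 CPM per kb, became 80.78 with the longest transcript as length. Pools with the same replicate number were not more alike: 2 of 10 same-number pairs had correlated deviations over 0.1, against 8 of 30 different-number pairs. The mean correlations were -0.0259 and 0.0087. The sample titles do not say whether pools of the same number were processed together, and these correlations cannot show it. With the number as a replicate block, the count of called genes was 0 in both comparisons with control (Cox6a2 adjusted p = 0.0811 and 0.0882, edgeR), and 4.26 was the Cre-positive log2 difference of Cox6a2 (adjusted p = 0.0399, edgeR). Depth limited Cox6a2, with 8 control reads in all, and the isoforms and assembly factors of low level.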

Other observations

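The spread between pools of a group differed among the 86 genes. The within-group SD of log2 CPM was 0.0538 for Atp5a1, the alpha subunit of ATP synthase, and 0.532 for Cox7a1, and it was under 0.1 for 30 genes. Atp5b, the beta subunit, stood at 1628 ± 58.7 CPM (SD, n = 4) in control, 1692 ± 93.4 (SD, n = 4) in XBP1ΔDC and 1690 ± 177 (SD, n = 3) in XBP1ΔDCIRE1truncDC.

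The summed levels of melanoma and macrophage markers overlapped between control and XBP1ΔDC. The summed level of 7 melanoma markers was 8.96 to 60.9 CPM in control, 12.2 to 64.7 in XBP1ΔDC and 8.74 to 11 in XBP1ΔDCIRE1truncDC, and that of 8 macrophage markers was 63.9 to 172, 88.6 to 148 and 64.9 to 157. Of the 7 macrophage markers tested, 6 were higher in XBP1ΔDC than in control, with a median log2 difference of 0.86. Over all genes tested, 5602 of 10951 were higher, with a median of 0.005. None of the 7 passed the adjusted p of 0.05 (edgeR). At an unadjusted p under 0.05 there was 1, where 7.62% of all genes tested reached that p. Of the 4 melanoma markers tested, 3 were lower in XBP1ΔDCIRE1truncDC than in control. Their median log2 difference was -1.9, beside -0.0031 over all genes tested. None of the 4 passed the adjusted p of 0.05 (edgeR). At an unadjusted p under 0.05, 2 were lower and 1 higher, where 11.2% of all genes tested reached that p. T and NK cell markers reached at most 1.78, 1.55 and 10.7 CPM, B cell markers 1.99, 1.92 and 0.559, neutrophil markers 0.555, 0.503 and 0.608, and cDC2 markers 68.1, 56.4 and 55.5. Their part in the levels of the respiratory chain genes was not tested.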
